A study of Homo sapiens with 12 samples.

Results

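Gefitinib, an inhibitor of the epidermal growth factor receptor (EGFR) kinase, was compared with its solvent DMSO in HCC827, an EGFR-mutant line of human non-small cell lung cancer. The comparison used the 6 arrays, of 12 in the series, whose titles place them in monoculture: 3 arrays of gefitinib monoculture and 3 of DMSO monoculture. Cells of the first group were given 0.5 µM gefitinib after 24 h and rinsed with PBS, and the culture then went on for 48 h. The other 6 arrays hold HCC827 cells that shared their medium with MRC-5 lung fibroblasts across porous inserts, 3 with gefitinib and 3 without, and enter only where a difference from them is given. The labels name RPMI medium for routine growth and EMEM for co-culture. The sources used here do not say which of them the monocultures had in the last 48 h, or whether the drug was still present. All groups are 1 cell line. Nothing in the labels says that the 3 arrays of a group came from separate cultures, so the p-values measure the spread between these arrays, which may be technical.

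EGFR is a cell-surface receptor that, once bound by ligands such as amphiregulin or HB-EGF, signals through the RAS-ERK cascade and through PI3 kinase and AKT. ERK activity sustains immediate early transcription factors, cyclin D1 and the feedback inhibitors of the DUSP and Sprouty families, while AKT keeps FOXO transcription factors out of the nucleus. In lung cancer cells with an activating EGFR mutation both branches depend on the mutant receptor, and gefitinib occupies the ATP pocket of its kinase domain.

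All levels are log2 of intensities that the authors had normalized between arrays, from Illumina bead arrays with biotin-labelled cRNA. A bound ("at least") is given where a gene was detected on no array of a group, as the mean of the bright group over that of the dim one, where each dim array counts at its lowest detected signal or the probe's own, whichever is higher. The values are not corrected for background, so a dim gene's change is compressed toward 0; where a background-corrected change is given, it comes from limma's neqc. Changes are gefitinib minus DMSO with the standard error of the limma model, n = 3 arrays a group. Of the probes, between 43.4% and 46.5% were detected per array (detection p under 0.05). Within a group, arrays correlated with r from 0.995 to 0.996 and across the groups with r from 0.975 to 0.976. All 10 lung adenocarcinoma cell markers, among them EPCAM, CDH1, KRT7 and NKX2-1, were detected on at least 2 of 3 arrays of a group. Of 15 fibroblast markers 5 were detected, of 9 immune cell markers 5 and of 8 endothelial markers 2.

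Gefitinib changed 4653 of 20046 genes (23.2%) at an adjusted p under 0.05: 2547 (12.7%) rose and 2106 (10.5%) fell. Scaling the scanner intensities to a common median instead gave 1998 upward and 2725 downward calls, so small changes have no settled balance. Of the 20046 genes, 167 (0.833%) rose and 220 (1.1%) fell by at least 2-fold, and 9 in each direction by at least 4-fold; the median size of a called change was 0.40. The groups did not overlap in 7002 genes (34.9%). Among the 12550 genes detected on at least 2 of 3 arrays of a group, 20.1% rose and 16.6% fell; these shares are the background for the lists below, most of whose members were detected.

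A gene is given by its brightest probe. Of the 264 called genes named here, 115 had other probes, and in 62 of them the change was over 1.5 times smaller when all probes were averaged. Among them were MDK (0.69 averaged, 1.99 by the brightest probe), PMEPA1 (0.89, 1.71), CDKN2B (0.91, 1.54), OAS2 (0.49, 1.34), KRT18 (-0.69, -1.35), SHMT1 (-0.61, -1.35), PCNA (-0.55, -1.24), ETV5 (-0.66, -1.22) and ERBB3 (0.30, 0.78). CXCL16 (0.845 averaged), IFI44L (0.84), RFC5 (-0.648) and GAB2 (0.281) were also among them, and none of their other probes was called. In 27 genes another probe had the opposite sign. Where this is not said beside the gene, these were EXO1, HLA-C, HMGA1, LFNG, ORC5, PTPRE, UPP1, VEGFA, ATG3 and BAX, each with 1 such probe and none of them called. The call of 22 of the 264 genes ended in at least 1 alternative setting, and 11 genes not called gained one; these are marked beside the gene.

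The largest fall was that of EGR1, an immediate early zinc finger transcription factor. Its levels were 7.00, 7.12 and 7.17 with gefitinib, against 9.81, 10.00 and 9.81 with DMSO, a change of -2.77 ± 0.080, adjusted p = 3.02e-16; the neqc change was -3.95. Every gefitinib array lay below every DMSO array, which was a condition for the 12 largest falls. CDKN3, a phosphatase that acts on cyclin-dependent kinases, had 8.75, 8.81 and 8.56 with gefitinib, against 11.01, 11.00 and 10.98 with DMSO (-2.29 ± 0.079). FGFBP1, a secreted carrier of fibroblast growth factors, had 7.09, 7.04 and 6.90 with gefitinib, against 9.16, 9.08 and 9.08 with DMSO (-2.10 ± 0.077). The other 9 of the 12 largest falls were genes of mitosis and its cyclins: KIF20A, NEK2, CCNA2, KIF2C, CENPA, FAM83D, CCNB2, DLGAP5 and TOP2A, with changes between -2.06 and -1.99.

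The largest rise was that of FILIP1L, filamin A interacting protein 1 like. It had 10.08, 10.01 and 10.09 with gefitinib, against 7.49, 7.54 and 7.33 with DMSO, a change of 2.61 ± 0.078, adjusted p = 3.25e-16. CCL2, the monocyte chemoattractant, had 9.38, 9.40 and 9.42 with gefitinib, against 6.82, 7.01 and 6.91 with DMSO (2.48 ± 0.076; neqc 3.90). ACKR3, an atypical receptor for CXCL12, had 8.93, 9.06 and 8.79 with gefitinib, against 6.78, 6.66 and 6.75 with DMSO (2.20 ± 0.081; neqc 3.95). In all 3 genes no gefitinib array overlapped a DMSO array, which was a condition for the 12 largest rises. IL32, a proinflammatory cytokine, had 10.13, 10.14 and 10.29 with gefitinib, against 8.00, 8.06 and 7.86 with DMSO (2.22 ± 0.080). UBD, a ubiquitin-like protein induced by inflammatory cytokines, had 11.41, 11.26 and 11.20 with gefitinib, against 9.18, 9.19 and 9.13 with DMSO (2.12 ± 0.078). MDK, the heparin-binding growth factor midkine, had 12.18, 12.19 and 12.24 with gefitinib, against 10.09, 10.33 and 10.23 with DMSO (1.99 ± 0.079). The remaining 6 of the 12 largest rises were OLFML2A (2.31 ± 0.076), the beta-tubulin gene TUBB2B (2.18 ± 0.079), the kinase gene SBK1 (2.14 ± 0.081), the histone gene H2AC25 (2.01 ± 0.084), the membrane repair protein DYSF (1.98 ± 0.074) and the calcium channel subunit CACNB3 (1.93 ± 0.077). Both other probes of SBK1 had the opposite sign, without a call. Tubulin and histone genes have near-identical copies that can share a probe.

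**Figure D1:**
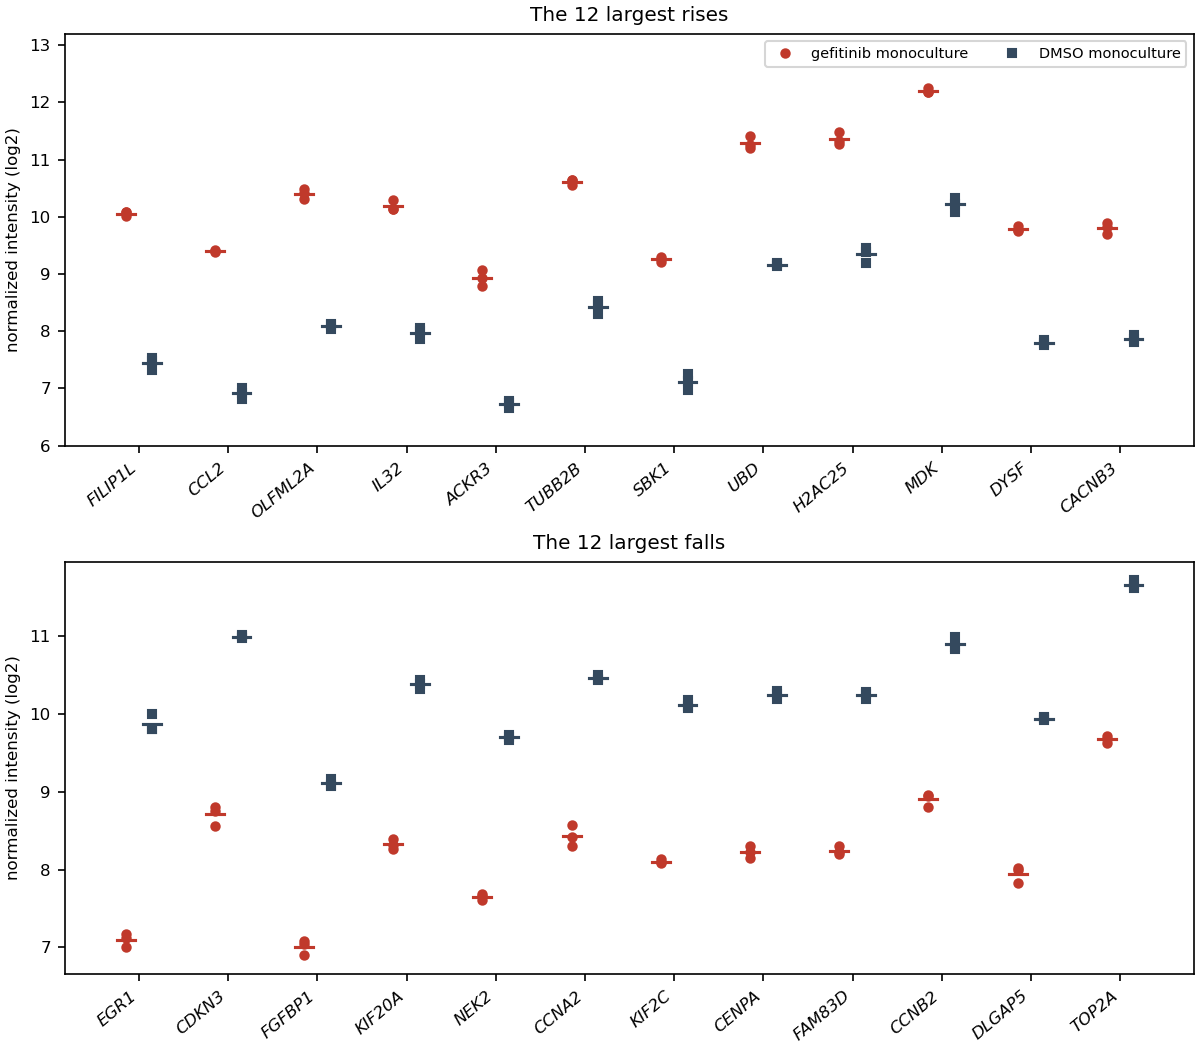
Normalized intensity (log2) of the 12 genes with the largest rise (upper panel) and the 12 with the largest fall (lower panel), with gefitinib monoculture as circles left of DMSO monoculture as squares, 3 arrays each, and short lines at the group means. No gene's groups overlap, as the choice of these genes required. CCL2 lies at 9.40 with gefitinib and 6.92 with DMSO, and EGR1 at 7.10 with gefitinib and 9.87 with DMSO.

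EGFR itself, the drug's target, had 11.44, 11.47 and 11.51 with gefitinib, against 11.81, 11.79 and 11.84 with DMSO, a change of -0.34 ± 0.073, adjusted p = 0.00118. The groups did not overlap, but the fall was small, and 1 of its 3 other probes pointed the other way. ERBB3, the kinase-impaired receptor that couples to PI3 kinase, rose, with 9.39, 9.50 and 9.48 with gefitinib, against 8.81, 8.67 and 8.55 with DMSO (0.78 ± 0.081, adjusted p = 8.23e-08). ERBB2, the shared dimerisation partner, had 9.96, 9.90 and 9.97 with gefitinib, against 9.57, 9.46 and 9.33 with DMSO (0.49 ± 0.079); both of its other probes pointed the other way, and the call ended when its probes were averaged. ERBB4 was not called (0.11 ± 0.077).

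Among the 9 ErbB ligands measured, 2 rose and 3 fell. HBEGF, the heparin-binding ligand of EGFR and ERBB4, had 10.46, 10.72 and 10.77 with gefitinib, against 8.75, 8.69 and 8.85 with DMSO (1.89 ± 0.085, adjusted p = 6.11e-14), with every gefitinib array above every DMSO array. Epiregulin (EREG) and betacellulin (BTC) fell, by changes of -0.51 ± 0.091 and -0.49 ± 0.080; background-corrected with neqc, these were -1.23 and -1.06. The brightest probe of NRG1, a ligand of ERBB3 and ERBB4, fell (-1.34 ± 0.076), while 5 of its 6 other probes pointed upward, none with a call, and the call ended when its probes were averaged. NRG3, detected on 1 gefitinib array and no DMSO array, was at least 1.05-fold higher with gefitinib, a call lost in 4 of 13 alternative settings. TGFA was not called (-0.17 ± 0.077).

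Of 16 receptor feedback proteins and adaptors, 4 rose (25%) and 1 fell (6.25%), against 20.1% and 16.6% of detected genes. The member that fell, ERRFI1, encodes MIG6, which binds and restrains the EGFR kinase domain; it had 10.86, 10.79 and 10.74 with gefitinib, against 11.70, 11.65 and 11.79 with DMSO (-0.92 ± 0.076, adjusted p = 2.11e-09). CBLB, a ubiquitin ligase that directs receptors to degradation, had 8.82, 8.80 and 8.87 with gefitinib, against 7.72, 7.68 and 7.50 with DMSO (1.20 ± 0.078). The adaptor genes GAB2 (0.77 ± 0.078) and GRB7 (0.40 ± 0.086) also rose, whereas GRB2 (0.14 ± 0.088) and SHC1 (-0.092 ± 0.075) were not called. The other probe of GRB2 was called downward, and SHC1 was called under median scaling.

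Feedback inhibitors of ERK fell in 6 of 14 cases and rose in 2. DUSP6, a phosphatase specific for ERK, had 6.80, 6.80 and 6.72 with gefitinib, against 7.93, 7.87 and 7.88 with DMSO (-1.12 ± 0.074, adjusted p = 4.16e-11); its neqc change was -2.43, and its other probe had the opposite sign without a call. SPRY1, a Sprouty inhibitor of RAS-ERK signalling, had 7.84, 7.71 and 7.76 with gefitinib, against 8.83, 8.91 and 8.93 with DMSO (-1.12 ± 0.075). DUSP5, a nuclear ERK phosphatase, had 7.66, 7.89 and 7.93 with gefitinib, against 8.91, 8.87 and 8.67 with DMSO (-0.99 ± 0.087). In these 3 genes the gefitinib arrays lay below all DMSO arrays. SPRED2 and SPRED1, related inhibitors, changed by -0.78 ± 0.073 and -0.54 ± 0.077. Against them, DUSP1, a phosphatase that also acts on p38 and JNK, rose (1.12 ± 0.073), as did the phosphatase PTPRE (0.97 ± 0.084). DUSP4 (-0.077 ± 0.076) and SPRY2 (-0.055 ± 0.075) were not called.

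Immediate early factors did not move together: 3 of 18 fell and 7 rose, and the 7 were 3 under median scaling, 3 with neqc, 3 without DMSO replicate 1 and 4 without gefitinib replicate 2 or DMSO replicate 3. FOSL1, an AP-1 subunit whose protein ERK stabilises, had 7.68, 7.76 and 7.95 with gefitinib, against 9.40, 9.47 and 9.43 with DMSO (-1.64 ± 0.080, adjusted p = 2.33e-13). FOS was detected on no gefitinib array and on all 3 DMSO arrays, and was at least 1.4-fold lower with gefitinib (adjusted p = 2.43e-06). ATF3, a stress-induced factor of the ATF family, had 9.63, 9.72 and 9.57 with gefitinib, against 8.51, 8.46 and 8.56 with DMSO (1.14 ± 0.076), and 1 of its 2 other probes was of opposite sign. JUND (0.47 ± 0.088) and JUN (0.32 ± 0.078), the partners of FOS proteins in AP-1, rose less, and the call of JUN ended under median scaling and with neqc. MYC had 0.26 ± 0.080 and lost its call in 6 of 14 alternative settings.

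Of 20 ETS factors and late outputs of ERK, 10 fell and 3 rose. PHLDA1, a pleckstrin-homology protein, had 8.57, 8.40 and 8.70 with gefitinib, against 10.33, 10.44 and 10.38 with DMSO (-1.82 ± 0.082). CCND1, the gene of cyclin D1, had 10.74, 10.62 and 10.69 with gefitinib, against 12.17, 12.03 and 11.96 with DMSO (-1.37 ± 0.079, adjusted p = 3.58e-12). ETV5, an ETS factor, had 7.05, 6.81 and 6.99 with gefitinib, against 8.09, 8.26 and 8.15 with DMSO (-1.22 ± 0.081), and ETV1 was not called (-0.12 ± 0.083). Their relative ETV4, detected on no gefitinib array, was at least 1.29-fold lower with gefitinib (adjusted p = 0.000286). The other members that fell were HMGA1, UPP1, PHLDA2, EPHA2, HMGA2 and ODC1, between -1.28 and -0.61. The 3 that rose were the chemokine CXCL1 (1.56 ± 0.076), the urokinase PLAU (0.57 ± 0.074) and the cytokine LIF (0.42 ± 0.078).

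Of 24 FOXO-type targets and PI3 kinase antagonists, 10 rose and 2 fell. PIK3IP1, a transmembrane inhibitor of PI3 kinase, had 9.11, 8.87 and 9.04 with gefitinib, against 7.20, 7.41 and 7.54 with DMSO (1.63 ± 0.089, adjusted p = 1.58e-12; neqc 2.34). FOXO4 had 8.79, 8.65 and 8.90 with gefitinib, against 7.62, 7.71 and 7.52 with DMSO (1.16 ± 0.082), and FOXO1 (0.10 ± 0.076) and FOXO3 (0.13 ± 0.074) were not called. The stress sensors GADD45B (1.08 ± 0.073) and GADD45A (0.76 ± 0.076), the thioredoxin inhibitor TXNIP (0.82 ± 0.076) and the repressor BCL6 (0.75 ± 0.077) rose. IRS1, the insulin receptor substrate, changed by -0.45 ± 0.081 and the lipid phosphatase INPP4B by -0.35 ± 0.078; IRS2 was not called (0.026 ± 0.091).

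Among 25 other receptor kinases, 4 rose and 3 fell, close to the shares of all genes and below those of detected genes. The collagen receptor DDR1 (0.85 ± 0.094) and the ephrin receptor EPHB4 (0.62 ± 0.075) rose most, although both other probes of DDR1 had the opposite sign. AXL, the GAS6 receptor, had 7.07, 7.19 and 6.98 with gefitinib, against 7.95, 7.95 and 7.82 with DMSO (-0.83 ± 0.079). MET, the receptor of hepatocyte growth factor, had -0.42 ± 0.093 and was not called with neqc (adjusted p = 0.0746). IGF1R, detected on no DMSO array, was at least 1.15-fold higher with gefitinib (adjusted p = 0.0401), a call lost in 5 of 14 alternative settings, and FGFR1 (0.025 ± 0.095) was not called.

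Of 6 CDK inhibitor genes 4 rose and 1, CDKN2D (-0.25 ± 0.078), fell. Its other probe pointed upward, and the call was lost in 4 of 14 alternative settings (adjusted p up to 0.423): with probes averaged (-0.086), without gefitinib replicate 1 or 2 and without DMSO replicate 2. CDKN2B, which encodes the CDK4 and CDK6 inhibitor p15, had 9.90, 9.82 and 9.89 with gefitinib, against 8.44, 8.27 and 8.29 with DMSO (1.54 ± 0.077, adjusted p = 3.04e-13). CDKN1C (p57) had 7.76, 7.88 and 7.95 with gefitinib, against 6.86, 6.76 and 6.73 with DMSO (1.08 ± 0.078; neqc 2.37), and CDKN1B (p27), a FOXO target, had 9.56, 9.62 and 9.82 with gefitinib, against 8.84, 8.84 and 8.80 with DMSO (0.84 ± 0.080). CDKN1A (p21) rose by 0.59 and CDKN2A was not called (0.038 ± 0.086), except with its probes averaged (0.27). Both other probes of CDKN2A were called upward. Of 20 cyclins, kinases and their regulators, 14 fell and 1, CDK6 (0.53 ± 0.078), rose. CCNA2 had 8.42, 8.58 and 8.31 with gefitinib, against 10.45, 10.51 and 10.44 with DMSO (-2.03 ± 0.080), CDK1 changed by -1.79 ± 0.083 and CCNB1 by -1.62 ± 0.079. Cyclin E genes CCNE1 (-0.18 ± 0.077) and CCNE2 (0.025 ± 0.084) and CDK4 (0.091 ± 0.073) were not called, although CCNE1 was under median scaling.

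Transcription factors of the cell cycle fell in 9 of 20 cases. FOXM1, the activator of mitotic genes, had 7.33, 7.44 and 7.17 with gefitinib, against 8.90, 8.89 and 9.11 with DMSO (-1.65 ± 0.085, adjusted p = 5.67e-13). TFDP1, the partner of E2F proteins, changed by -0.79 ± 0.077, and E2F1 (0.14 ± 0.11) and MYBL2 (-0.15 ± 0.080) were not called. RBL2 (p130), which is held in the repressive DREAM complex of resting cells, rose by 0.27, a call lost in 3 of 14 alternative settings: median scaling, and without gefitinib replicate 2 or DMSO replicate 2.

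Replication proteins fell in 43 of 51 cases (84.3%), with none called upward and a median change of -0.77. CDC45, which activates the replicative helicase, had 8.01, 8.05 and 7.83 with gefitinib, against 9.87, 9.80 and 9.74 with DMSO (-1.84 ± 0.080, adjusted p = 3.15e-14). GINS2, a subunit of the same helicase, had 8.79, 8.78 and 8.67 with gefitinib, against 10.47, 10.55 and 10.54 with DMSO (-1.77 ± 0.075), and CDT1, the origin licensing factor, had 7.72, 7.61 and 7.54 with gefitinib, against 9.24, 9.19 and 9.43 with DMSO (-1.66 ± 0.082). In each of these genes the gefitinib arrays lay below all DMSO arrays. All 6 subunits of the MCM2 to MCM7 helicase fell, from -1.47 for MCM4 to -0.74 for MCM5. The sliding clamp PCNA (-1.24 ± 0.080) and the flap nuclease FEN1 (-1.18 ± 0.076) fell as well. Of the origin recognition complex, ORC1 (-0.67 ± 0.082), ORC2 (-0.22 ± 0.075) and ORC5 (-0.24 ± 0.074) fell, and ORC3, ORC4 and ORC6 were not called. The calls of ORC2 and of ORC5 each ended in 6 of 14 alternative settings. ORC6 was at 0.068 by its brightest probe, but its other probe was called downward, as was the mean of its probes (-0.525).

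Nucleotide synthesis fell in 13 of 20 cases. The salvage kinase TK1 had 8.21, 8.23 and 8.27 with gefitinib, against 10.00, 10.15 and 9.98 with DMSO (-1.81 ± 0.076), and thymidylate synthase, TYMS, had 8.77, 8.59 and 8.82 with gefitinib, against 10.21, 10.36 and 10.25 with DMSO (-1.54 ± 0.081). Both subunits of ribonucleotide reductase, which makes deoxynucleotides, changed: RRM2 by -1.22 ± 0.075 and RRM1 by -1.04 ± 0.079. DUT, the dUTPase, changed by -1.20 ± 0.074, but 1 of its other probes was called in the opposite direction. Of the homologous recombination and Fanconi genes, 15 of 27 fell, with RAD51AP1 at -1.73 ± 0.089, EXO1 at -1.50 ± 0.074 and BRCA1 at -1.03 ± 0.082; ATM (0.23 ± 0.082), ATR (-0.090 ± 0.074) and PALB2 (0.12 ± 0.074) were not called, although ATM was in 2 of 14 alternative settings.

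Of 36 spindle checkpoint and mitotic kinase genes 34 fell (94.4%, median -1.60), of 33 kinetochore and centromere genes 29 (87.9%, median -0.75), and of 12 mitotic kinesins 12 (median -1.34). Over all genes the median change was 0.0026. NEK2, a centrosome kinase, had 7.66, 7.68 and 7.61 with gefitinib, against 9.74, 9.70 and 9.66 with DMSO (-2.05 ± 0.074, adjusted p = 4.01e-15). DLGAP5, a microtubule-binding protein of the spindle, had 7.99, 7.83 and 8.02 with gefitinib, against 9.94, 9.92 and 9.96 with DMSO (-2.00 ± 0.077), and TOP2A, the topoisomerase that untangles sister chromatids, had 9.72, 9.63 and 9.68 with gefitinib, against 11.66, 11.62 and 11.72 with DMSO (-1.99 ± 0.074). The 3 gefitinib arrays were close to each other and lay below every DMSO array in each of them. The latter was a condition for the 12 largest falls, which include these 3 genes. CENPA, the histone that marks centromeres, had 8.31, 8.23 and 8.15 with gefitinib, against 10.26, 10.19 and 10.30 with DMSO (-2.02 ± 0.076). Its chaperone HJURP changed by -1.81 ± 0.077 and the Aurora kinases by -1.90 ± 0.086 (AURKB) and -1.73 ± 0.075 (AURKA). MKI67, which encodes the Ki-67 antigen and was dim, changed by -0.65 ± 0.080 (neqc -1.62). The 2 members not called were MAD1L1 (0.043 ± 0.085) and CCNB3 (0.049 ± 0.080).

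All 12 kinesins of mitosis fell, with KIF20A at 8.26, 8.31 and 8.40 with gefitinib, against 10.44, 10.32 and 10.39 with DMSO (-2.06 ± 0.076) and KIF15 at the small end (-0.57 ± 0.073). Of 19 kinesins and light chains of cargo transport, none fell and 4 rose: KIF3C (0.75 ± 0.087), KIF13B (0.53 ± 0.077), KIF1B (0.42 ± 0.079) and KLC1 (0.29 ± 0.087). The 4 were 21.1% of the list, near the 20.1% of detected genes that rose. The call of KLC1 ended in 5 of 14 alternative settings (adjusted p up to 0.338): median scaling, neqc, and without gefitinib replicate 1 or 2 or DMSO replicate 3. In 6 settings, median scaling among them, 1 transport member fell.

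Promoter sequences of the lists that moved most are shown to set the letters beside the changes. They come from RefSeq (GRCh38.p14), which matched 1069 of the 1320 distinct list members, and hold 250 bases before and 50 after the start of the gene. Many promoters of mitotic genes hold a CCAAT box, bound by the activator NF-Y, and a cell-cycle homology region, here TTTGAA, through which the DREAM complex represses them in resting cells. Many replication genes are controlled through E2F sites, here TTTNGCGC. Each motif was searched on both strands. CCAAT was present in 20 of 28 promoters of the spindle list (71.4%), in 26 of 45 of the replication list (57.8%) and in 35.7% of all 27305 promoters. TTTGAA was present in 18 of 28 spindle promoters (64.3%), in 1 of 45 replication promoters (2.22%) and in 15.4% of all. TTTNGCGC was present in 1 of 28 spindle promoters (3.57%), in 15 of 45 replication promoters (33.3%) and in 1.83% of all. Of the 37 replication promoters whose genes fell, 12 held TTTNGCGC and 21 held CCAAT, about the shares of the whole list. Of the 26 spindle promoters whose genes fell, 20 held CCAAT and 18 held TTTGAA. The 3 spindle genes with the largest falls are printed first, from 250 bases before to 30 after the start, 5′ to 3′ on the strand of the gene. Capitals mark CCAAT and TTTGAA or their reverse complements. NEK2 held CCAAT only, and DLGAP5 and TOP2A held both.
NEK2 (chr1:211675592-211675871, minus strand): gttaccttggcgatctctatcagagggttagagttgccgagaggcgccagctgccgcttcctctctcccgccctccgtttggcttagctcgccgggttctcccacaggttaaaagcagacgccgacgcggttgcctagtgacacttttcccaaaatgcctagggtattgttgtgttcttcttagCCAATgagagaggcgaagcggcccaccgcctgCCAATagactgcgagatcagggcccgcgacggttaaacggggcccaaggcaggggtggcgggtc
DLGAP5 (chr14:55191556-55191835, minus strand): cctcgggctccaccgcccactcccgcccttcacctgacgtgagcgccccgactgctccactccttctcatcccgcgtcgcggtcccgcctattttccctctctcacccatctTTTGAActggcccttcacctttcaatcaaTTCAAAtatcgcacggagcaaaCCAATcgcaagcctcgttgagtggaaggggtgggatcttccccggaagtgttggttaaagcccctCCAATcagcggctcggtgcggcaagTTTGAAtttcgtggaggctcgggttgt
TOP2A (chr17:40417867-40418146, minus strand): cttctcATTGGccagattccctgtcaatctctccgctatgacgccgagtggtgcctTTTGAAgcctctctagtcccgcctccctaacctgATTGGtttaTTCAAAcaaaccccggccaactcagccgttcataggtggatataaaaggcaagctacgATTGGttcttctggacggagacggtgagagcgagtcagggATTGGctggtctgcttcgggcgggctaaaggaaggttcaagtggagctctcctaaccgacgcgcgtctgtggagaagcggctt
Printed next are CDT1 and RFC5, 2 replication genes with a large fall and a match, with TTTNGCGC or its reverse complement in capitals. The choice left out MCM4, which fell further than RFC5 (-1.47), and whether MCM4 held a match is not given here.
CDT1 (chr16:88803539-88803818, plus strand): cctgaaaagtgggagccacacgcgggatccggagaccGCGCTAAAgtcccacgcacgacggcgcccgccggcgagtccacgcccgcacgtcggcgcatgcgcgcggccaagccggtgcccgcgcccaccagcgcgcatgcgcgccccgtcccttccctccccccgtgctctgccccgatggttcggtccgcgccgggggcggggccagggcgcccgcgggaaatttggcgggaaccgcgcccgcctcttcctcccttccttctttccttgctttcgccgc
RFC5 (chr12:118016453-118016732, plus strand): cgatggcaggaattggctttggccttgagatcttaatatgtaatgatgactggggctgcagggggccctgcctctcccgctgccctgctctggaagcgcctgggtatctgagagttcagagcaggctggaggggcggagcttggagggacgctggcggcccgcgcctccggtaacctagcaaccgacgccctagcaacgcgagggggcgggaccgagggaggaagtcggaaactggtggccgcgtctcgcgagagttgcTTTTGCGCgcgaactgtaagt
CDT1 changed by -1.66 ± 0.082 and RFC5, a subunit of the clamp loader, by -1.22 ± 0.074. CDC45 and GINS2, which fell further than RFC5, had no promoter with a match to TTTNGCGC among those searched. Whether a promoter of either gene was among those searched is not given here. A match is a description of these letters.

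**Figure D2:**
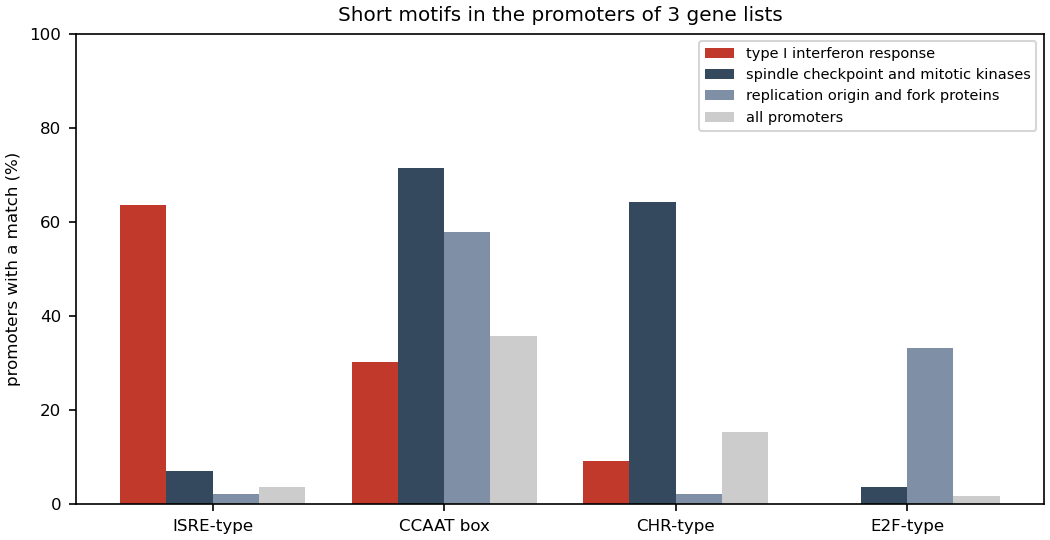
Percent of promoters with at least 1 match to a motif on either strand, for the type I interferon, spindle and replication lists and for all 27305 promoters; ISRE-type stands for 2 copies of GAAA set 2 bases apart, CHR-type for TTTGAA and E2F-type for TTTNGCGC. The first reaches 63.6% in the interferon list, TTTGAA 64.3% in the spindle list and TTTNGCGC 33.3% in the replication list, against 3.65%, 15.4% and 1.83% of all promoters.

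Of 37 ribosome biogenesis genes 23 fell (62.2%) and 1 rose. LYAR, a nucleolar protein, had 9.58, 9.64 and 9.62 with gefitinib, against 10.59, 10.70 and 10.70 with DMSO (-1.05 ± 0.074, adjusted p = 1.54e-10); fibrillarin, FBL, changed by -0.61 ± 0.074 and NOLC1 by -0.55 ± 0.078. Of 46 proteins of the mitochondrial ribosome 33 fell (71.7%, median -0.32), led by MRPL19 (-0.73 ± 0.082) and MRPL35 (-0.66 ± 0.076). With neqc 20 of the 46 were called. Of 51 cytosolic ribosomal proteins 10 rose (19.6%, near the 20.1% of detected genes) and 2 fell (3.92%), with a median of 0.05. The 10 were 5 under median scaling and 4 with neqc. These genes are among the brightest on the array and have many processed copies in the genome.

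Proteasome subunits fell in 13 of 29 cases, all by less than 2-fold, led by PSMD8 (-0.58 ± 0.10) and PSMD2 (-0.52 ± 0.088); the 13 were 6 with neqc, 23 under median scaling and 6 without gefitinib replicate 1 or DMSO replicate 3. Cytosolic heat shock proteins fell in 8 of 17 cases, with CHORDC1 at -0.65 ± 0.084 and HSPA4 at -0.56 ± 0.085; the other probe of HSPA4 had the opposite sign, and the mean of its probes changed by -0.27. HSPB8, a small heat shock protein, went the other way with 9.87, 10.03 and 9.64 with gefitinib, against 8.87, 8.88 and 8.64 with DMSO (1.05 ± 0.093). In the endoplasmic reticulum 5 of 19 folding genes fell, and 9 under median scaling, with SDF2L1 at -0.83 ± 0.082, while HSPA5 (BiP) was not called (-0.11 ± 0.079). Of 18 aminoacyl-tRNA synthetases 3 fell (16.7%, near the 16.6% of detected genes) and 1 rose (5.56%). Under median scaling 7 fell, and with neqc 1.

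Of 22 genes of glucose uptake and glycolysis 17 fell (77.3%, median -0.68) and none rose. PFKFB4, which makes the activator of phosphofructokinase, had 8.08, 8.13 and 8.14 with gefitinib, against 9.82, 9.76 and 9.86 with DMSO (-1.70 ± 0.074, adjusted p = 3.36e-14). The glucose transporter SLC2A1 had 10.71, 10.75 and 10.81 with gefitinib, against 12.10, 11.96 and 12.00 with DMSO (-1.27 ± 0.075), and hexokinase 2, HK2, had 7.71, 7.63 and 7.66 with gefitinib, against 8.85, 8.85 and 8.86 with DMSO (-1.19 ± 0.073). All gefitinib arrays lay below all DMSO arrays in the 3 genes. Lactate dehydrogenase A, LDHA, changed by -0.80 ± 0.074, and GAPDH was not called (-0.21 ± 0.078) but was in 5 of 14 alternative settings. Both other probes of GAPDH were called downward, and the mean of its probes changed by -0.515. The pentose phosphate list had 3 members up and 2 down, but 1 up and 3 down under median scaling, with PGLS, the lactonase, at 0.75 ± 0.079 and RPIA, the ribose phosphate isomerase, at -0.50 ± 0.075.

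Genes of the hypoxia response outside glycolysis fell in 15 of 21 cases (71.4%). ANGPTL4, a secreted inhibitor of lipoprotein lipase, had 7.31, 7.17 and 7.25 with gefitinib, against 9.02, 9.05 and 9.00 with DMSO (-1.78 ± 0.075). Neither of its 2 other probes was called, 1 had the opposite sign, and the mean of its probes changed by -0.60. NDRG1 had 8.43, 8.54 and 8.60 with gefitinib, against 10.11, 9.99 and 9.99 with DMSO (-1.51 ± 0.077), and DDIT4 (REDD1), an inhibitor of mTORC1, had 10.62, 10.77 and 10.71 with gefitinib, against 12.09, 12.10 and 12.24 with DMSO (-1.45 ± 0.077). VEGFA, the vascular growth factor, changed by -1.03 ± 0.082 and HIF1A by -0.54 ± 0.084. STC2, a secreted glycoprotein, was the member that rose, with 11.81, 11.77 and 11.77 with gefitinib, against 10.92, 10.80 and 10.74 with DMSO (0.96 ± 0.076).

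Cholesterol synthesis fell in 12 of 19 cases (63.2%). INSIG1, the sterol-regulated anchor of SREBP processing, had 9.42, 9.54 and 9.39 with gefitinib, against 10.84, 10.87 and 10.75 with DMSO (-1.37 ± 0.076, adjusted p = 2.07e-12). HMGCS1, early in the pathway, changed by -0.67 ± 0.080 and SQLE, which oxidises squalene, by -0.66 ± 0.077. TM7SF2, a sterol reductase, rose instead, with 8.78, 8.71 and 8.74 with gefitinib, against 7.65, 7.74 and 7.54 with DMSO (1.10 ± 0.077). Of 14 genes of fatty acid synthesis 6 fell and none rose. ELOVL6, the elongase of saturated chains, had 9.41, 9.23 and 9.11 with gefitinib, against 11.11, 10.84 and 10.94 with DMSO (-1.71 ± 0.088), and the desaturase SCD had 11.26, 11.29 and 11.23 with gefitinib, against 12.53, 12.55 and 12.55 with DMSO (-1.29 ± 0.073). FASN changed by -0.51 ± 0.074 and ACLY was not called (-0.048 ± 0.086).

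Serine, one-carbon and ATF4 genes moved in both directions, 6 up and 10 down of 29; under median scaling these were 3 up and 15 down, and with neqc 3 up and 7 down. SHMT1, the cytosolic serine hydroxymethyltransferase, had 9.00, 8.99 and 8.87 with gefitinib, against 10.28, 10.32 and 10.30 with DMSO (-1.35 ± 0.075), and PHGDH, which starts serine synthesis, changed by -0.84 ± 0.079. The amino acid transporter SLC38A2 rose (0.62 ± 0.083), and ASNS (-0.082 ± 0.079) and ATF4 (0.072 ± 0.077) were not called, although ASNS was under median scaling. Oxidative phosphorylation had 6 of 46 members up and 8 down; under median scaling these were 0 up and 22 down, and with neqc 0 up and 5 down. Without 1 array the 6 were 2 (gefitinib replicate 2) or 3 (gefitinib replicate 1, DMSO replicate 1 or 3). NRF2 targets had 5 up and 5 down of 19, which were 3 up and 7 down under median scaling and 4 up and 2 down with neqc, with AKR1C3 at 0.67 ± 0.083 and GCLM, of glutathione synthesis, at -0.69 ± 0.090. The metallothioneins, whose copies are close enough to share probes, had MT1F at 1.79 ± 0.088 and MT1H at 0.91 ± 0.080, against MT1G at -0.39 ± 0.081.

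Of 30 autophagy genes 15 rose and 2 fell. TP53INP1, a stress-induced regulator, had 8.89, 9.06 and 9.03 with gefitinib, against 7.41, 7.44 and 7.42 with DMSO (1.57 ± 0.076, adjusted p = 1.84e-13). ULK1, the kinase that starts autophagy, had 11.07, 10.97 and 10.81 with gefitinib, against 9.74, 9.62 and 9.68 with DMSO (1.27 ± 0.081), and GABARAPL1, an ATG8-family protein of the autophagosome, had 8.96, 8.95 and 9.09 with gefitinib, against 7.79, 7.85 and 7.72 with DMSO (1.22 ± 0.077). The cargo receptors SQSTM1 (0.56 ± 0.075) and OPTN (0.74 ± 0.073) rose too. The members that fell, ATG3 (-0.31 ± 0.080) and ATG16L1 (-0.28 ± 0.076), were not called with neqc; ATG3 was also not called with its probes averaged or without gefitinib replicate 2, nor ATG16L1 without DMSO replicate 1. Of 29 lysosome genes 17 rose and 1 fell, and 4 fell under median scaling. The protease CTSH had 10.91, 10.88 and 10.96 with gefitinib, against 9.55, 9.55 and 9.53 with DMSO (1.37 ± 0.073), CTSB changed by 0.91 ± 0.079 and CTSA by 0.91 ± 0.074; NPC1, the cholesterol exporter, changed by -0.35 ± 0.077. The regulators TFE3 (0.22 ± 0.077) and TFEB (-0.12 ± 0.077) moved little: the call of TFE3 ended in 10 of 14 alternative settings, and TFEB was not called.

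**Figure D3:**
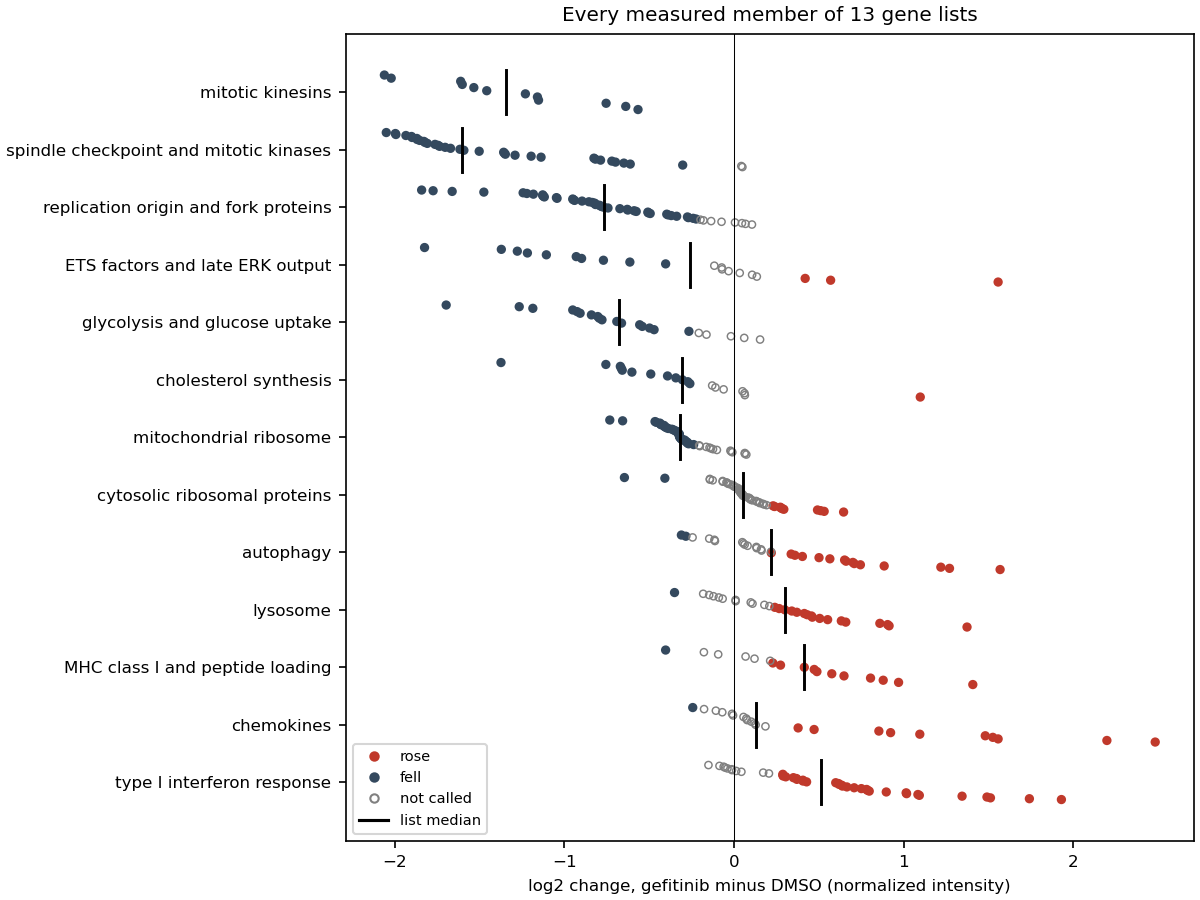
Change with gefitinib (log2, gefitinib minus DMSO) of every measured member of 13 gene lists, with members that rose in red, members that fell in dark blue, members not called as open circles and the list median as a black bar. The spindle list has its median at -1.60 and 34 of 36 members fell; the type I interferon list has its median at 0.51 and 31 of 42 members rose.

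Of 18 BCL2 family genes 3 rose (16.7%) and 1 fell (5.56%), against 20.1% and 16.6% of detected genes. BMF, a BH3-only protein that promotes apoptosis, had 8.84, 8.81 and 8.77 with gefitinib, against 7.20, 7.03 and 7.12 with DMSO (1.69 ± 0.076, adjusted p = 5.64e-14; neqc 2.65), and 1 of its 3 other probes was of opposite sign. BOK changed by 0.51 ± 0.079 and BAX, an effector of apoptosis, by -0.40 ± 0.086, a call that ended when its probes were averaged. BCL2L11, which encodes BIM, was not called at the level of RNA, with 6.99, 6.86 and 6.88 with gefitinib, against 6.80, 7.12 and 6.93 with DMSO (-0.039 ± 0.085, adjusted p = 0.846). Its groups overlapped, with a 95% interval of the difference from -0.22 to 0.14. MCL1 (-0.061 ± 0.076), BCL2 (0.13 ± 0.099) and BBC3, which encodes PUMA (0.16 ± 0.078), were not called either; with its probes averaged MCL1 was called downward (-0.20), and its other probe was called downward too. Of 20 caspases and death receptors 7 rose and 2 fell. CFLAR, the inhibitor of caspase 8 activation, had 10.21, 10.23 and 10.10 with gefitinib, against 9.39, 9.39 and 9.38 with DMSO (0.79 ± 0.075). TNFSF10 (TRAIL) was detected on all 3 gefitinib arrays and on no DMSO array, and was at least 1.33-fold higher with gefitinib (adjusted p = 2.18e-05). CASP4 changed by 0.52 ± 0.080, and CASP8 (0.048 ± 0.080) and CASP10 (0.025 ± 0.076) were not called.

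Interferon-stimulated genes rose in 31 of 42 cases (73.8%), none fell, and the list median was 0.51. IFI27 had 12.61, 12.63 and 12.43 with gefitinib, against 10.69, 10.61 and 10.58 with DMSO (1.93 ± 0.078, adjusted p = 1.39e-14). MX1, a dynamin-like antiviral GTPase, had 10.89, 10.69 and 10.72 with gefitinib, against 9.08, 9.04 and 8.95 with DMSO (1.74 ± 0.079), and IFI44L had 9.29, 9.07 and 9.29 with gefitinib, against 7.71, 7.75 and 7.65 with DMSO (1.51 ± 0.080). OAS2, which makes the activator of RNase L, had 8.18, 7.95 and 8.05 with gefitinib, against 6.71, 6.81 and 6.64 with DMSO (1.34 ± 0.080; neqc 2.86). The gefitinib arrays of these 4 genes lay above all DMSO arrays. Among the regulators, IRF9 (0.90 ± 0.080), IRF7 (0.79 ± 0.091) and IRF1 (0.41 ± 0.075) rose. RSAD2 (0.044 ± 0.078), USP18 (-0.086 ± 0.081) and EIF2AK2, which encodes PKR (-0.15 ± 0.076), were not called. Under median scaling 1 of the 42, EIF2AK2, fell.

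The promoters of the 3 interferon-stimulated genes with the largest rises are shown for their interferon-stimulated response elements, the sites of ISGF3 and IRF proteins. The form searched, 2 copies of GAAA set 2 bases apart, was present on either strand in 21 of 33 promoters of the list (63.6%), in 17 of the 26 whose genes rose and in 3.65% of all 27305. The members that rose thus held it about as often as the list as a whole. Capitals mark both copies and the bases between them, on either strand. IFI27 and IFI44L held 2 matches each and MX1 held 1.
IFI27 (chr14:94110486-94110765, plus strand): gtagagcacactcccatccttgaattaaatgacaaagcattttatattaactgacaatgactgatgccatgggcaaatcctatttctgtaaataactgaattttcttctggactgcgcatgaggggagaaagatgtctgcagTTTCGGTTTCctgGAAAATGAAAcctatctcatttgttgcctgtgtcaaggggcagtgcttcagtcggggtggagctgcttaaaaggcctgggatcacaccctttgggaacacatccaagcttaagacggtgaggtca
MX1 (chr21:41420308-41420587, plus strand): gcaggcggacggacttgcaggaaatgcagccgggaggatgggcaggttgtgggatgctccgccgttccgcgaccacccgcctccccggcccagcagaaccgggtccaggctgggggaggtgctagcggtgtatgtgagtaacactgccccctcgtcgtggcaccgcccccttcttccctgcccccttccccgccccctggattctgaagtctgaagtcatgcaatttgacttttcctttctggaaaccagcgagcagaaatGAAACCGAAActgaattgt
IFI44L (chr1:78620198-78620477, plus strand): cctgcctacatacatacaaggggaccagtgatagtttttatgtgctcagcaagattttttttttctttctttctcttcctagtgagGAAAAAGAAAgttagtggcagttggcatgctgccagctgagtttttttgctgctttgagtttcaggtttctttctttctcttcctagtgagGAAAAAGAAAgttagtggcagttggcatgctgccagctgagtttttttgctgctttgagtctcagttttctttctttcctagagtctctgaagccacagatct

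Genes of MHC class I presentation rose in 11 of 17 cases (64.7%). HLA-B had 10.21, 10.27 and 10.30 with gefitinib, against 8.87, 8.79 and 8.90 with DMSO (1.41 ± 0.075, adjusted p = 9.27e-13); HLA-F changed by 0.97 ± 0.079, HLA-E by 0.88 ± 0.073 and HLA-C by 0.49 ± 0.079, a call that ended when its probes were averaged. These genes are close relatives, and a probe may read more than one. The light chain B2M (0.65 ± 0.078), the transporter TAP1 (0.58 ± 0.077), its partner TAPBP (0.80 ± 0.083) and the immunoproteasome subunit PSMB8 (0.47 ± 0.074) rose. NLRC5, the class I transactivator, was not called (-0.18 ± 0.079), except without DMSO replicate 2. ERAP2 fell (-0.40 ± 0.090), but its other probe was called in the opposite direction, and its call ended with neqc and with its probes averaged. Of 11 class II genes only HLA-DMA was called (0.71 ± 0.081), and the transactivator CIITA was not (-0.037 ± 0.074).

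Of 23 chemokines and their receptors 10 rose (43.5%) and 1 fell. Besides CCL2 and ACKR3, CXCL16 had 11.33, 11.30 and 11.18 with gefitinib, against 9.69, 9.87 and 9.68 with DMSO (1.52 ± 0.079). The neutrophil attractants CXCL1 (1.56 ± 0.076), CXCL8 (1.48 ± 0.076) and CXCL6 (0.85 ± 0.075) rose. The interferon-inducible CXCL10 had 7.99, 7.78 and 7.98 with gefitinib, against 6.76, 6.82 and 6.88 with DMSO (1.09 ± 0.079), and its relatives CXCL9 (0.12 ± 0.087) and CXCL11 (0.077 ± 0.079) were not called. CCL26 fell (-0.24 ± 0.074), a call that ended without gefitinib replicate 2 or DMSO replicate 3 (adjusted p up to 0.0857).

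NF-kB regulators and targets rose in 14 of 26 cases (53.8%) and none fell, apart from 1 without gefitinib replicate 2. LCN2, the iron-binding lipocalin, had 10.16, 10.40 and 10.59 with gefitinib, against 8.45, 8.51 and 8.43 with DMSO (1.92 ± 0.090, adjusted p = 1.16e-13). IL6 had 10.06, 10.05 and 10.02 with gefitinib, against 8.73, 8.96 and 8.93 with DMSO (1.17 ± 0.079), and TNF, detected on no DMSO array, was at least 1.51-fold higher with gefitinib (adjusted p = 1.24e-07). Subunits and inhibitors moved the same way, with RELB at 0.63 ± 0.076, NFKB1 at 0.32 ± 0.074 and NFKBIA at 0.64 ± 0.075; NFKB1 was not called under median scaling. TNFAIP3 (A20) was not called (-0.034 ± 0.081), nor were PTGS2 (-0.12 ± 0.087) and IL1B (0.020 ± 0.088). In the IL6 and STAT3 list 5 of 17 rose, with the kinase JAK1 at 0.74 ± 0.095 and STAT3 at 0.58 ± 0.082, and the receptor OSMR changed by -0.37 ± 0.075; SOCS3, their feedback inhibitor, was not called (0.075 ± 0.089). Of 15 complement genes 5 rose, led by CFB, a component of the alternative pathway convertase, with 9.95, 9.97 and 9.93 with gefitinib, against 8.20, 8.06 and 8.20 with DMSO (1.80 ± 0.075), while C3 was not called (-0.054 ± 0.081).

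Of 12 keratins 2 rose (16.7%) and 2 fell (16.7%), against 20.1% and 16.6% of detected genes. KRT18, a keratin of simple epithelium, had 8.39, 8.48 and 8.56 with gefitinib, against 9.72, 9.79 and 9.97 with DMSO (-1.35 ± 0.082, adjusted p = 9.5e-12), and its partner KRT8 had 10.28, 10.58 and 10.44 with gefitinib, against 11.83, 11.76 and 11.75 with DMSO (-1.35 ± 0.082). KRT19 was not called (0.00085 ± 0.074), and KRT80 (0.71 ± 0.077) and KRT7 (0.32 ± 0.073) rose, KRT7 not under median scaling. Of 29 junction genes 10 rose and 1 fell. CLDN1, a claudin of tight junctions, had 11.15, 11.22 and 11.10 with gefitinib, against 9.74, 9.57 and 9.56 with DMSO (1.53 ± 0.078), and JUP (plakoglobin) had 11.37, 11.35 and 11.50 with gefitinib, against 10.45, 10.35 and 10.43 with DMSO (1.00 ± 0.076). CDH1 (E-cadherin) was not called (0.072 ± 0.080), nor was EPCAM (-0.061 ± 0.077).

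Of 18 regulators and markers of epithelial-mesenchymal transition 4 rose (22.2%) and 1 fell (5.56%), against 20.1% and 16.6% of detected genes. Vimentin, VIM, had 11.92, 12.12 and 12.02 with gefitinib, against 10.91, 10.90 and 10.86 with DMSO (1.13 ± 0.077, adjusted p = 7.52e-11), and SNAI2 changed by 0.48 ± 0.074. TNC, the matrix protein tenascin C, had 7.81, 8.02 and 7.73 with gefitinib, against 9.40, 9.43 and 9.32 with DMSO (-1.53 ± 0.083). ZEB1 (0.061 ± 0.075), CDH2 (0.074 ± 0.082) and FN1 (0.048 ± 0.083) were not called. Of 32 lung lineage genes 8 rose (25%) and 3 fell (9.4%). NAPSA, the aspartic protease of alveolar type II cells, had 8.81, 8.98 and 9.01 with gefitinib, against 8.43, 8.26 and 8.53 with DMSO (0.53 ± 0.084), and MUC1, a membrane mucin, had 9.58, 9.36 and 9.34 with gefitinib, against 10.70, 10.36 and 10.43 with DMSO (-1.07 ± 0.091). NKX2-1 was not called (0.097 ± 0.077). The surfactant genes SFTPB (0.037 ± 0.077), SFTPC (-0.11 ± 0.074) and SFTPD (0.13 ± 0.083) were not called.

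Of 32 matrix and adhesion genes 9 rose (28.1%) and 4 fell (12.5%), against 20.1% and 16.6% of detected genes. The basement membrane collagens COL4A1, with 10.04, 10.19 and 10.05 with gefitinib, against 8.73, 8.50 and 8.59 with DMSO (1.48 ± 0.080), and COL4A2 (0.81 ± 0.082) rose together, as did the integrin ITGAV (1.23 ± 0.080). ITGA3 (-0.68 ± 0.084) and ITGA2 (-0.56 ± 0.079), which bind laminin and collagen, fell. COL5A1 (1.03 ± 0.081), COL1A1 (0.53 ± 0.088) and LUM (0.68 ± 0.091) are on the fibroblast list and rose, while PDGFRA, PDGFRB, THY1, FAP and POSTN were not called; whether other cells had a part in this was not tested. Among proteases and their inhibitors TIMP2 rose (1.22 ± 0.082) and MMP7 rose (0.92 ± 0.078), and KLK6 fell (-1.43 ± 0.075), with its other probe of opposite sign.

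Of 23 TGF-beta and activin genes 10 rose and 1 fell. PMEPA1, a feedback inhibitor of TGF-beta signalling, had 10.80, 10.83 and 10.94 with gefitinib, against 9.22, 9.10 and 9.13 with DMSO (1.71 ± 0.076, adjusted p = 5.04e-14). The ligand TGFB2 had 9.13, 9.24 and 8.93 with gefitinib, against 7.94, 7.99 and 7.85 with DMSO (1.17 ± 0.084), the inhibitory SMAD7 changed by 0.57 ± 0.075 and FSTL3 by 1.08 ± 0.081. Follistatin, FST, which traps activin, fell, with 7.16, 7.00 and 7.21 with gefitinib, against 8.40, 8.56 and 8.48 with DMSO (-1.36 ± 0.080). In the BMP list ID3 (1.33 ± 0.075) and ID2 (0.59 ± 0.083) rose and ID1 (-0.62 ± 0.079) fell. YAP and TEAD targets split, 5 up and 6 down of 20. ANKRD1 had 9.95, 10.11 and 9.98 with gefitinib, against 8.57, 8.31 and 8.27 with DMSO (1.63 ± 0.086), whereas F3 (tissue factor) had 9.72, 9.87 and 9.88 with gefitinib, against 11.55, 11.64 and 11.82 with DMSO (-1.84 ± 0.083), and CCN1 was not called (0.075 ± 0.084). Contractile genes rose in 12 of 20 cases (60%). TAGLN had 9.63, 9.69 and 9.43 with gefitinib, against 8.09, 8.06 and 7.92 with DMSO (1.56 ± 0.083), CALD1 changed by 1.16 ± 0.076 and TPM2 by 0.94 ± 0.075. Each of these 3 had 1 other probe of opposite sign, without a call, and 1 called in the same direction.

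Of 21 genes linked to drug tolerance 9 rose and none fell. KDM5B, a histone H3 demethylase, had 9.79, 9.76 and 9.95 with gefitinib, against 8.94, 8.76 and 8.81 with DMSO (1.00 ± 0.080, adjusted p = 1.12e-09). ALDH1A3 had 12.30, 12.52 and 12.45 with gefitinib, against 11.58, 11.42 and 11.37 with DMSO (0.97 ± 0.082), and GPX4, which reduces lipid peroxides, changed by 0.81 ± 0.076. CD44 (-0.16 ± 0.077) and PROM1 (0.0014 ± 0.087) were not called, although CD44 was under median scaling. Under median scaling 2 of the 21 fell. Notch genes (2 up, 2 down of 20), KLF factors (2 up, 1 down of 13) and S100 proteins (2 up, 2 down of 15) had shares close to those of all genes. These shares were below those of detected genes. LFNG, which modifies Notch receptors, was at 0.91 ± 0.075, KLF6 at 0.44 ± 0.078 and S100A2 at -0.95 ± 0.098.

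**Figure D4:**
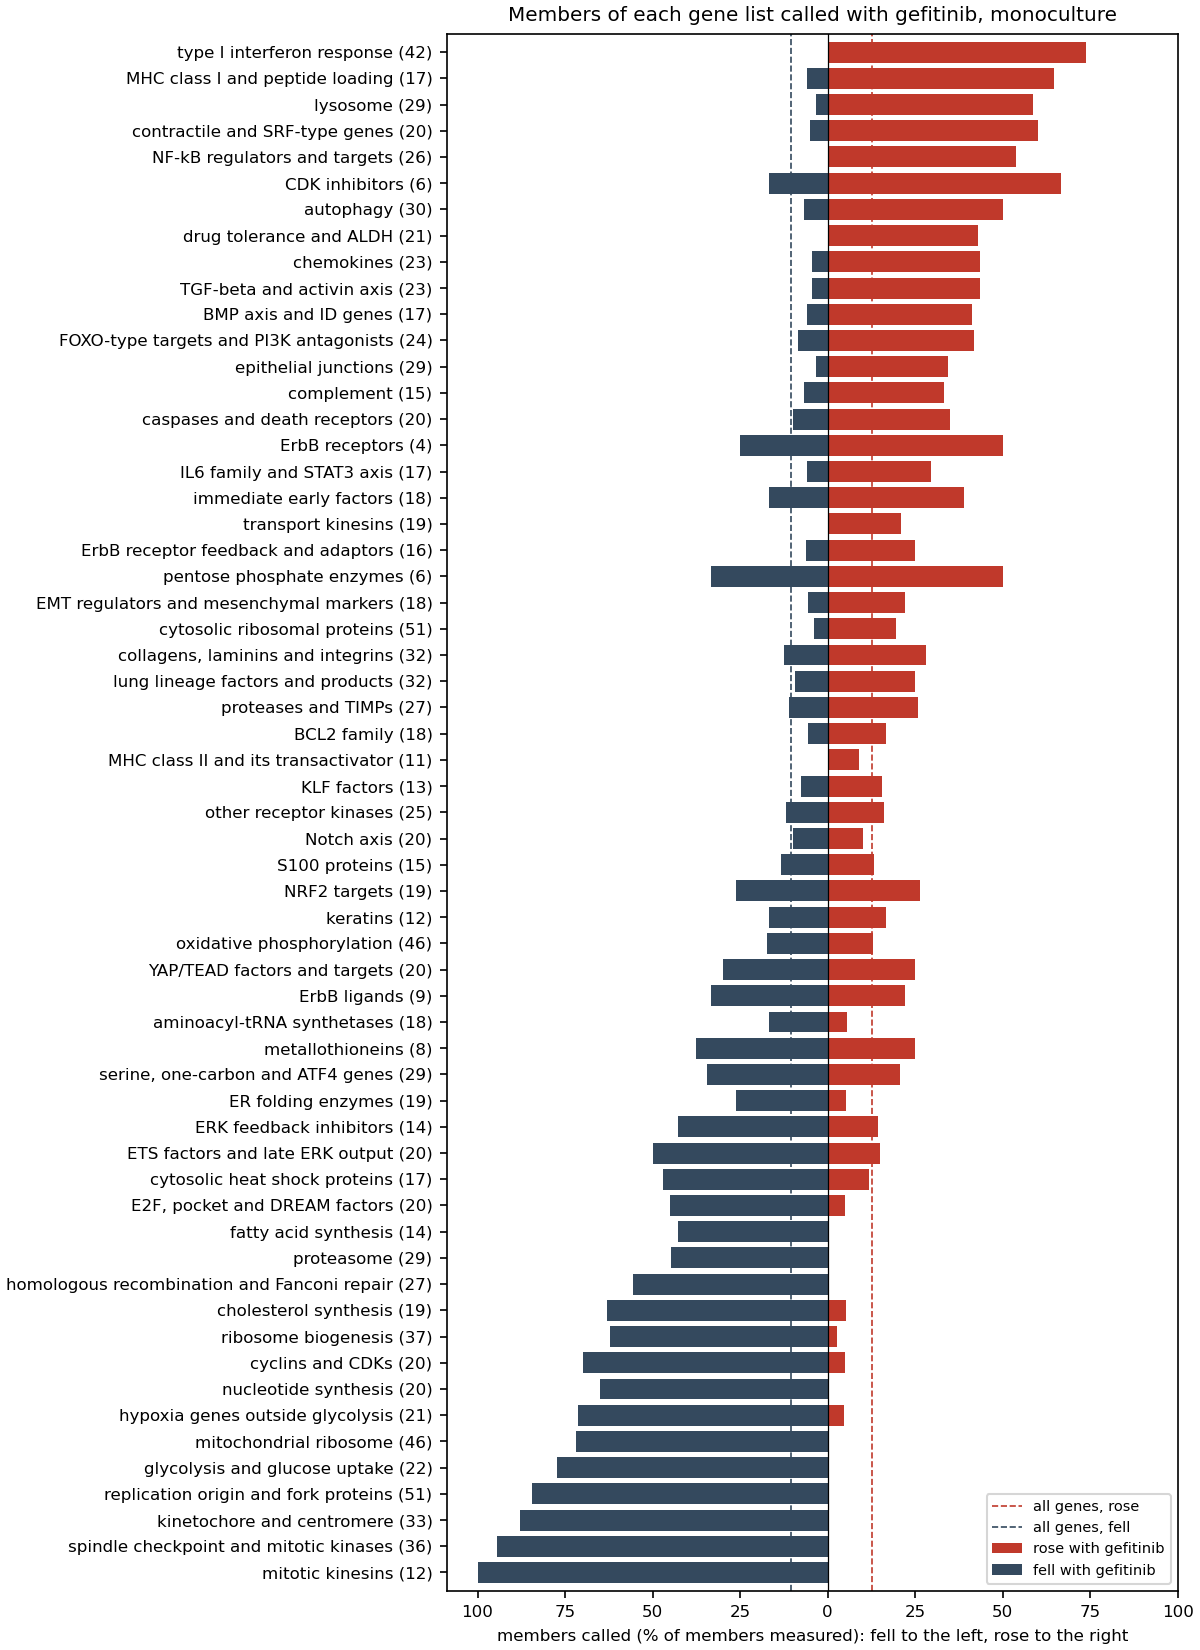
Percent of the measured members of each gene list (number in parentheses) that rose with gefitinib, drawn to the right, or fell, drawn to the left, in monoculture, for 59 lists; dashed lines mark the shares over all genes, 12.7% upward and 10.5% downward. The mitotic kinesins (100% fell) stand at one end and the type I interferon list (73.8% rose) at the other.

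The effect of gefitinib in monoculture was set against its effect in co-culture with MRC-5 fibroblasts, in a limma model of all 12 arrays. The effects differed in 2695 of 20046 genes (13.4%). Of these, 2542 were also called in monoculture, and in 2514 of the 2542 the effect was smaller in co-culture. Choosing genes by their monoculture call favours a larger effect there. In co-culture 311 genes (1.55%) were called. Both effects have their own controls. TOP2A fell by 1.99 in monoculture and changed by -0.030 in co-culture, a difference of -1.96 ± 0.12 (adjusted p = 6.43e-13). EGR1 had a mean of 7.10 with gefitinib in monoculture, against 9.87 with DMSO, and 10.19 with gefitinib in co-culture, against 10.23 in co-culture without it. DUSP6 changed by -1.12 in monoculture and by -0.65 in co-culture, a difference of -0.47 ± 0.11 (adjusted p = 0.00242). The titles of the co-culture arrays carry a suffix that the monoculture titles lack, and the medium may have differed, so co-culture and these cannot be told apart.

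**Figure D5:**
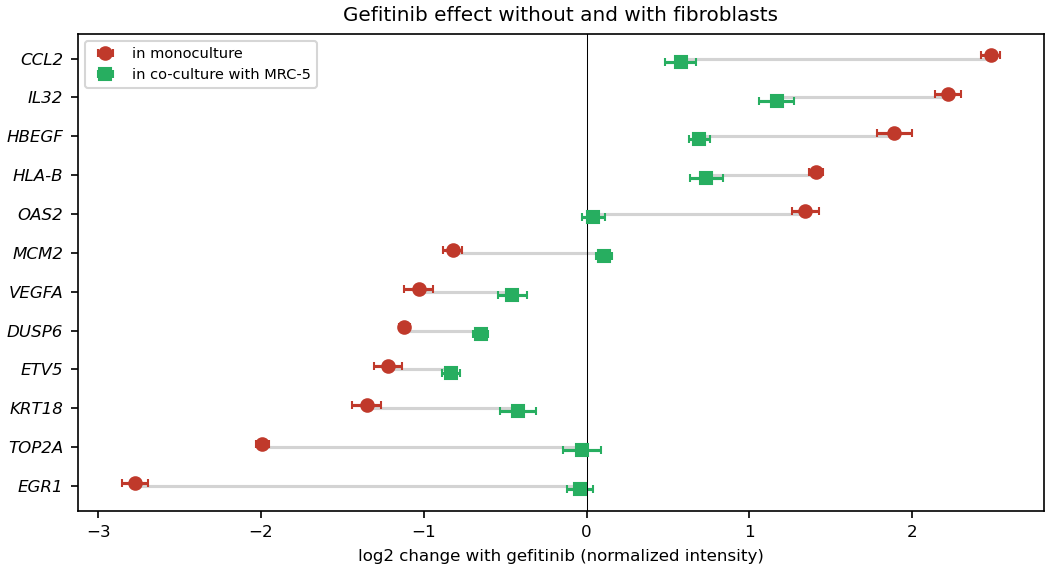
Log2 change with gefitinib in monoculture (red circles) and in co-culture with MRC-5 (green squares) for 12 genes; bars are the standard error of the difference of group means from the SDs of 3 arrays a group. CCL2 lies at 2.48 in monoculture and 0.58 in co-culture, and TOP2A at -1.99 in monoculture and -0.030 in co-culture.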

How the data were processed

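RNA of HCC827 cells was hybridised to Illumina bead arrays, per the labels; RNA had been extracted with Qiazol and RNeasy and labelled with biotin by MessageAmp (Ambion), as the labels' protocols state. The main values are intensities that the authors had normalized between arrays and deposited, linear and uncentred, by a method that the sources used here do not give; log2 was taken of them. The scanner table holds an intensity per probe, not background-subtracted, and a detection p-value, per the file headers. Scanner and normalized intensities of each monoculture array correlated with r of at least 0.99988. The scanner columns of the co-culture arrays (12) were not used, because their rows stood in another order than the probe names. Median scanner intensities were 99.1 to 103, and the number of arrays limits the precision.

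Gene symbols came from the platform annotation: of 48107 probes 30113 had 1 symbol, 8 several and 17986 none given here. Looking symbols up by gene identifier in RefSeq GRCh38.p14 changed 0 of them. A gene was represented by its brightest probe over the 6 arrays, which gave 20046 genes. The members and gene lists were chosen with earlier results of these data known. Some of their genes were not analysed here. limma 3.58.1 (R 4.3.3; lmFit, eBayes) compared 3 gefitinib with 3 DMSO arrays, two-sided, with Benjamini-Hochberg adjustment over all 30113 probes and a threshold of 0.05. "Rose" and "fell" mean past it. No dim probe was left out. The interaction with co-culture came from 1 model of 12 arrays. Named genes were the 12 largest called changes each way with non-overlapping groups and detection on all 3 arrays of the brighter group, a set of pathway anchors, and up to 4 called members of each list with the largest changes plus those against its direction; other list members were named after their values were seen. The fit was tested on simulated data. Replicate numbers in the titles did not pair the samples (correlations of deviations between -0.029 and 0.00018). Alternatives were neqc (offset 16), median scaling, cyclic loess, detected probes only, probe means, all 12 arrays, a replicate block, each array left out and, chosen after seeing the data, an intensity trend in the prior variance.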

Additional observations from a re-analysis of the deposited data

Results flagged for a closer look

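The effect of gefitinib in monoculture and its effect in co-culture differed by the interaction term of the 12-array limma model in 2695 genes. The differences that follow are the monoculture effect minus the co-culture effect on the log2 scale, with their standard errors. Among genes of ERK output and cell division the difference was negative for the immediate early factor EGR1 (-2.74 ± 0.12, adjusted p = 7.56e-16), for the topoisomerase TOP2A (-1.96 ± 0.12, adjusted p = 6.43e-13) and for the helicase subunit MCM2 (-0.93 ± 0.11, adjusted p = 2.42e-07). For the ERK phosphatase DUSP6 (-0.47 ± 0.11, adjusted p = 0.00242) and for the ETS factor ETV5 (-0.38 ± 0.12, adjusted p = 0.0268) it was negative too, and both genes fell in either culture. For genes that rose in monoculture the difference was positive for the EGFR ligand HBEGF (1.20 ± 0.12, adjusted p = 1.29e-08), for the interferon-stimulated gene OAS2 (1.30 ± 0.12, adjusted p = 1.1e-09) and for HLA-B (0.67 ± 0.12, adjusted p = 0.000117). For the chemokine CCL2 (1.90 ± 0.12, adjusted p = 6.43e-13) and for the cytokine IL32 (1.05 ± 0.12, adjusted p = 2.42e-07) it was positive as well. It was negative for the growth factor VEGFA (-0.58 ± 0.12, adjusted p = 0.00117) and for the keratin KRT18 (-0.93 ± 0.13, adjusted p = 2.62e-06). In each of the 12 genes the effect was the smaller in co-culture. Medium and the suffix in the co-culture titles move with co-culture, and their part was not tested.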

How the results depend on the processing

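Of the 300 named genes 295 were called. Their direction was kept in all 14 alternatives in which each could be fitted, and 248 of them stayed past the threshold in every one. For the named genes not called, direction was not compared. With neqc 28 named genes lost their call, with probe means 20, under median scaling 17, with all 12 arrays 4, and with 1 array left out 10 to 14. With neqc the genes that rose at least 2-fold were 459 (167 on the authors' values) and those that fell 436 (220). The neqc change was a median 1.29 times the authors' change over called genes, 2.81 times for genes with a mean log2 level under 7 and 1.04 times at 10 or more, with 0 opposite signs. Under median scaling the median change of pentose phosphate enzymes was -0.096, against 0.095, and that of the BCL2 family -0.013, against 0.07; the cause was not tested. Calls numbered 2752 upward and 2314 downward when 12058 genes with detected probes were tested. With the replicate block 2521 genes rose and 2091 fell, and 2 named genes lost their call; the interaction gave 2733 genes. Without 1 array in turn, 4107 to 4182 genes changed, 2224 to 2298 upward and 1814 to 1931 downward, of which 161 to 177 rose and 210 to 215 fell at least 2-fold. The interaction gave 2348 to 2557 genes without 1 array, and its call of ETV5 ended in 6 of 12 such fits (adjusted p = 0.0167 to 0.107). The chip as a block was not run, since the files name no chip. Signal over background limits the dim genes, whose changes are compressed: 4616 genes were detected on none of the 6 arrays.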

Other observations

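Groups of genes taken by their symbols after the values were seen held further changes in monoculture. Of 72 genes of the H1, H2A, H2B, H3 and H4 histone families 18 rose and 6 fell. H2AC25 (2.01 ± 0.084), H2AC6 (1.12 ± 0.079) and H2BC21 (0.97 ± 0.088) rose most, and H2BC9 (-1.23 ± 0.079) and H4C3 (-1.12 ± 0.099) fell most; copies of these genes are near-identical and can share a probe. Condensin, which compacts mitotic chromosomes, fell in 7 of 8 subunits, led by NCAPG with 8.10, 8.00 and 7.96 with gefitinib, against 9.82, 9.96 and 9.89 with DMSO (-1.87 ± 0.076). Alpha and beta tubulins had 3 members up and 6 down of 18, with TUBB2B at 2.18 ± 0.079 and TUBB3 at 0.54 ± 0.077, against TUBB4B at -1.28 ± 0.080 and TUBB6 at -1.16 ± 0.078.

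Of 7 caveolins and cavins, the coat proteins of caveolae, 4 fell and none rose. CAV1 had 11.95, 12.03 and 11.99 with gefitinib, against 13.10, 13.06 and 13.07 with DMSO (-1.09 ± 0.073), CAV2 changed by -1.14 ± 0.079 and CAVIN1 by -0.84 ± 0.073. Of 8 ephrin ligands 4 rose, with EFNB3 at 8.83, 9.02 and 8.78 with gefitinib, against 7.20, 7.28 and 7.12 with DMSO (1.67 ± 0.081) and EFNA1 at 1.33 ± 0.078. Clustered protocadherins rose in 10 of 57 cases, 21 of which were detected, and none fell; PCDHB2 had 10.48, 10.34 and 10.49 with gefitinib, against 9.15, 9.13 and 9.13 with DMSO (1.30 ± 0.075). Of 7 interferon-inducible guanylate-binding proteins 2 rose and 1 fell, with GBP2 at 10.73, 10.69 and 10.72 with gefitinib, against 8.97, 9.12 and 9.09 with DMSO (1.65 ± 0.075), GBP1 at 1.17 ± 0.081 and GBP6 at -0.29 ± 0.097, a call that ended in 7 of 14 alternative settings. Of 5 gasdermins, pore-forming proteins of lytic cell death, GSDME (1.05 ± 0.078) and GSDMB (1.08 ± 0.076) rose. Of 443 ZNF genes, 333 of which were detected, 65 rose and 16 fell. Of all detected genes 20.1% rose and 16.6% fell, so the rises of ZNF genes were near the background and the falls below it.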
